A study of Mus musculus with 16 samples.

Results

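The 9 genes described here encode ligands, receptors and an inhibitor of the TGF-beta and activin branches of one signalling family. They are the ligands Tgfb1, Tgfb2 and Tgfb3, the activin subunits Inhba and Inhbb, the receptors Tgfbr1, Tgfbr2 and Tgfbr3, and the inhibitory Smad gene Smad7. They were taken by symbol, through the Ensembl identifier of each row, from the 22372 genes of the deposited table, and each of the 9 had its own row. The table held ventricles of 16 male C57BL/6J mice, 10 to 12 weeks old at the start, in 4 groups of 4. Sham-Veh mice had the operation without a constriction and received vehicle, and Sham-THZ1 mice had the same operation and received THZ1. TAC-Veh and TAC-THZ1 mice had transverse aortic constriction (TAC), in which a suture narrows the aorta so that the left ventricle works against a higher pressure, followed by vehicle or THZ1. THZ1, a covalent inhibitor of the transcriptional kinases Cdk7, Cdk12 and Cdk13, was given into the peritoneum to both the sham and the TAC arm, 10 mg/kg per injection, 2 injections daily, the first on day 1 and the last on day 60. The drug was given to the whole animal, and whole pieces of ventricle were sequenced, so no value below belongs to a single cell type.

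TGF-beta ligands are secreted in a latent complex, are released from it in the matrix, and then bind the type II receptor Tgfbr2, which recruits and phosphorylates the type I receptor Tgfbr1. The type III receptor Tgfbr3 (betaglycan) presents ligand, Tgfb2 above all, to Tgfbr2. Activated Tgfbr1 phosphorylates Smad2 and Smad3, which enter the nucleus with Smad4 and raise matrix genes and also Smad7, an inhibitor that blocks the receptor. Activins are dimers of inhibin beta chains (Inhba, Inhbb) and use their own receptors to reach the same Smads. In the pressure-loaded heart the family is known for driving fibroblasts to become matrix-producing myofibroblasts.

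A library held 21.4 to 35.8 M reads, and 13331 genes passed a filter of 10 normalized counts in 4 libraries, among them all 9 members. Of these reads, 33.2% to 44.7% were mitochondrial. Reads behind a member's value numbered 195 to 3673 per library, except for Inhbb (45 to 239) and Inhba (6 to 85). Cardiomyocyte markers were abundant in every library, and the 4 atrial markers summed to 25.1 to 82.3 normalized counts, with Bmp10 at 0 in 3 of the 4 groups. Marker genes of several cell types moved with the groups. Of all 13331 genes tested, 2857 were higher and 3146 lower with TAC, and 2019 and 1899 with THZ1 in TAC. Of 7 activated fibroblast markers, 6 were higher in TAC-Veh than in Sham-Veh and 5 lower in TAC-THZ1 than in TAC-Veh, and their sum was 5271 to 6772 normalized counts (Sham-Veh), 5907 to 6725 (Sham-THZ1), 29567 to 90029.9 (TAC-Veh), then 5608 to 11729.8 (TAC-THZ1). Postn, which alone read 20098 to 65868 in TAC-Veh, was the largest part of that group's sum. Of 7 general fibroblast markers, 3 were higher in the first and 3 lower in the second comparison, and their sum was 49544 to 56403, 53249 to 56580.2, 71225 to 78611 and 54954 to 78926 in the same order of groups. Of 7 cardiomyocyte markers, 4 were lower with TAC and 5 higher with THZ1 in TAC. Of 7 markers each, 4 macrophage markers were higher and 5 mural cell markers lower with TAC, while endothelial markers split into 2 higher and 2 lower. With THZ1 in TAC, 3 endothelial markers were lower and 1 higher, 2 mural cell markers were higher and 1 lower, 1 of 5 platelet markers was higher, and by limma no macrophage, erythroid or epicardial and mesothelial marker was called (0, 1 and 0 under an unadjusted p of 0.05). Neutrophil markers (4 tested) gave 2 higher with THZ1 in TAC, with sums of 208 to 7398 in TAC-THZ1 against 123 to 286 in TAC-Veh. With TAC, 2 of 5 platelet and 2 of 4 epicardial and mesothelial markers were higher, and by limma no erythroid, atrial, or T and B cell marker was called (2, 0 and 0 under an unadjusted p of 0.05). With THZ1 in TAC, 1 of 4 T and B cell markers (Cd79a) was lower. Their part in the results below was not tested. In bulk RNA, fewer cells of a type and less RNA per cell cannot be told apart.

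With constriction, 7 of the 9 genes were higher in TAC-Veh than in Sham-Veh, 1 was lower (Tgfbr3) and 1 did not pass the test (Smad7). Over all genes tested, 21.4% were called higher and 23.6% lower in that comparison. Under the drug, 7 of the 9 were lower in TAC-THZ1 than in TAC-Veh, against 14.2% of all genes, and Tgfbr3 and Smad7 did not pass. Both comparisons use the 4 TAC-Veh libraries, and the values of each are given side by side below. All 4 libraries of one group lay above all 4 of the other for 6 of the 9 with TAC (all genes 18.2%), and for Tgfbr3 all 4 lay below (all genes 19.1%). With THZ1 in TAC, 4 of the 9 had all TAC-THZ1 libraries below all TAC-Veh libraries, as did 10.5% of all genes. Between TAC-THZ1 and Sham-THZ1, which share no library with TAC-Veh, limma without array weights called only Tgfb2 higher and only Tgfbr3 lower among the 9, where all genes gave 11.4% and 12.8%. In that comparison Tgfb2 and Tgfbr1 had all TAC-THZ1 libraries above all Sham-THZ1 libraries (all genes 15.7%), and Tgfbr3 had all below (17.7%). None of the 9 was called for THZ1 in sham hearts, where 0.0675% of all genes were. A gene was called at an adjusted p under 0.05, and each change below is a difference of mean log2(normalized count + 1), which makes that of the low gene Inhba too small.

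The number of calls with THZ1 in TAC depended on how the spread was estimated. In the fit over all 4 groups, 7 members were lower with THZ1 in TAC, and their unadjusted p-values stayed under 0.05 when TAC-Veh and TAC-THZ1 were fitted alone. In that smaller fit only Tgfb2 and Tgfb3 kept an adjusted p under 0.05 (0.00938 each), and the other 5 lay between 0.0600 for Tgfbr1 and 0.113 for Inhbb. The fold threshold of the study, a log2 change of 1 with TAC and of 0.89 with THZ1 in TAC, left 4 members in each comparison, Tgfb2, Tgfb3, Inhba and Inhbb, where 4.64% of all genes were higher and 3.62% lower.

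**Figure D1:**
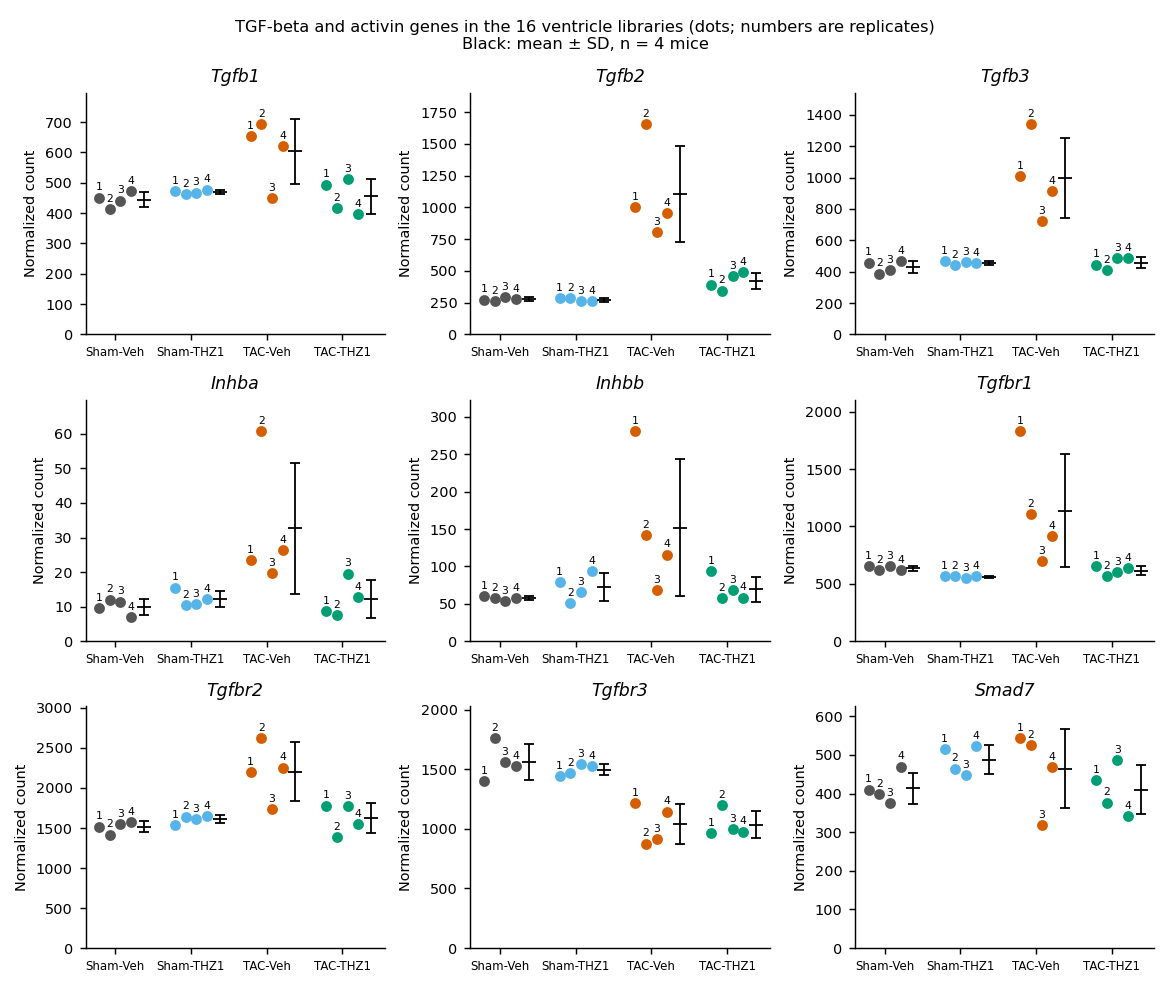
Normalized counts (vertical axes, from 0) of the 9 genes in each library, with replicate numbers beside the dots and the mean ± SD of 4 mice in black. The TAC-Veh dots of Tgfb2 and Tgfb3 lie above every other dot of their panels, those of Tgfbr3 lie in the same range as TAC-THZ1, and TAC-Veh replicate 3 is the lowest TAC-Veh dot in 8 of the 9 panels.

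Of the 3 TGF-beta ligands, Tgfb2, known for its part in cardiac valve formation and in fibrosis, changed most. Tgfb2 (ENSMUSG00000039239, chr1:188447065-188529871, minus strand, NCBIM37) read 275, 262, 297 and 276 normalized counts (Sham-Veh), 287, 286, 260.4 and 260.4 (Sham-THZ1), 1002, 1655, 806 and 955 (TAC-Veh), then 392, 345, 458 and 491 (TAC-THZ1). All 4 TAC-Veh libraries lay above all 12 others, and all 4 TAC-THZ1 libraries lay between them and the 8 sham libraries. The log2 change from Sham-Veh to TAC-Veh was 1.94 (SE 0.16, adjusted p 3.75e-07), a 3.82-fold rise. From TAC-Veh to TAC-THZ1 it was -1.35 (SE 0.16, adjusted p 6.13e-05), a 2.54-fold fall. A rise also remained under the drug, with a log2 change of 0.61 from Sham-THZ1 to TAC-THZ1 (adjusted p 0.0137), so that Tgfb2 was called in each of the 3 comparisons with a TAC group.

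Tgfb3, the third mammalian isoform, had a different end point. Tgfb3 (ENSMUSG00000021253, chr12:87397694-87419991, minus strand) read 458, 387, 408 and 466 normalized counts (Sham-Veh), 469, 442, 461 and 456 (Sham-THZ1), 1009.9, 1339, 723 and 915 (TAC-Veh), then 446, 411, 488 and 486 (TAC-THZ1). The TAC-Veh libraries again lay above all others, while those of the other 3 groups covered the same range. The log2 change was 1.18 with TAC (SE 0.13, adjusted p 4.40e-06) and -1.09 with THZ1 in TAC (SE 0.13, adjusted p 6.16e-05). TAC-THZ1 and Sham-THZ1 differed by -0.00 on the log2 scale, with a 95% interval from -0.28 to 0.28 (adjusted p 0.999).

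Tgfb1, the isoform most often measured in fibrosis, moved least of the 3. Tgfb1 (ENSMUSG00000002603, chr7:26472021-26490096, plus strand) read 451, 412, 441 and 473 normalized counts (Sham-Veh), 474, 462, 467 and 477 (Sham-THZ1), 654, 693, 449.8 and 620.1 (TAC-Veh), then 494, 418, 513 and 397 (TAC-THZ1). TAC-Veh replicate 3 lay within the sham range, and the other 3 TAC-Veh libraries lay above all libraries of the other groups. It changed on the log2 scale by 0.42 with TAC (SE 0.11, adjusted p 0.00612) and -0.40 with THZ1 in TAC (SE 0.11, adjusted p 0.0152). The call for THZ1 was lost without TAC-Veh replicate 2 (adjusted p 0.0595) and without TAC-THZ1 replicate 4 (adjusted p 0.0506).

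The windows around the annotated start sites of Tgfb2 and Tgfb1 are shown, while Tgfb3 was not among the windows searched. They are RefSeq sequences on GRCm38.p6, a later build than that of the counts, from 250 bases before to 50 bases after the start, written along the gene. Capitals mark every match to 1 of 6 motifs searched on both strands: the Smad-binding palindrome GTCTAGAC, a shorter piece bound by Smad proteins with letters CAGACA, the AP-1 element with letters TGACTCA, the cyclic AMP response element with letters TGACGTCA, the GC box of Sp1 with letters GGGCGG, and the TATA box with letters TATAAA, or their reverse complements. No motif found here overlapped another.
Tgfb2 (chr1:186705940-186706239, minus strand): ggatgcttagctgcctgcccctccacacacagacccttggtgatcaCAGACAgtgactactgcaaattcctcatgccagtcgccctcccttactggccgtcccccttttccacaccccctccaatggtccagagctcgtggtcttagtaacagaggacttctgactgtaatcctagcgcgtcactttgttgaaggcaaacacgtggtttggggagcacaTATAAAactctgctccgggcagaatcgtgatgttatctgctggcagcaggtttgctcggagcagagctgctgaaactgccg
Tgfb1 (chr7:25686752-25687051, plus strand): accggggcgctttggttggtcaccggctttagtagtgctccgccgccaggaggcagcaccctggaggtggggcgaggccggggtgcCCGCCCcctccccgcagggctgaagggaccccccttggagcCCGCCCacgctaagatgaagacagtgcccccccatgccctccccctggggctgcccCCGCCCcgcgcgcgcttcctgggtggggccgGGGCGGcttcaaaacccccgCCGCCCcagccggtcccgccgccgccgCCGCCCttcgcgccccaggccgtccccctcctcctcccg
The Tgfb2 window was 54.3% G and C, close to the median of 52.7% over 32851 promoter windows, and held TATAAA at position -31 and CAGACA at -204 from the start site. The Tgfb1 window was 77.0% G and C, with 6 GC boxes (5 of them written CCGCCC) and no TATAAA. Of all promoter windows, 13.6% held TATAAA, 21% CAGACA and 35.7% GGGCGG. A match is a stretch of letters and not a measured binding site, and a link between these letters and the changes was not tested.

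Since normalized counts grow with transcript length, the levels of the ligands were compared per kilobase of exon. In Sham-Veh the level was 174 ± 9.89 normalized counts per kb for Tgfb1, 127 ± 11.4 for Tgfb3 and 57.3 ± 2.98 for Tgfb2 (SD, n = 4). In TAC-Veh it was 236 ± 41.9, 295 ± 76.1 and 228 ± 77.8 in the same order, and the SDs of the 3 isoforms then overlapped. The 3 isoforms together came to 358 ± 21.5 (Sham-Veh), 375 ± 5.50 (Sham-THZ1), 759 ± 188 (TAC-Veh), then 400.2 ± 34.2 (TAC-THZ1). As shares of that sum, Tgfb1 held 47.8% to 48.9% (Sham-Veh), 48.3% to 49.7% (Sham-THZ1), 26.9% to 34.1% (TAC-Veh), then 38.8% to 47.6% (TAC-THZ1). Tgfb2 held 14.99% to 17.3% and 14.3% to 15.95% in the sham groups, 27.2% to 33.9% in TAC-Veh and 20.0% to 25.3% in TAC-THZ1. The share of Tgfb3 varied less, with group means of 35.4%, 36.0%, 38.7% and 33.8% from Sham-Veh through Sham-THZ1 and TAC-Veh to TAC-THZ1. The shares of Tgfb1 and Tgfb2 did not overlap between TAC-Veh and any other group, and the shares were not tested.

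**Figure D2:**
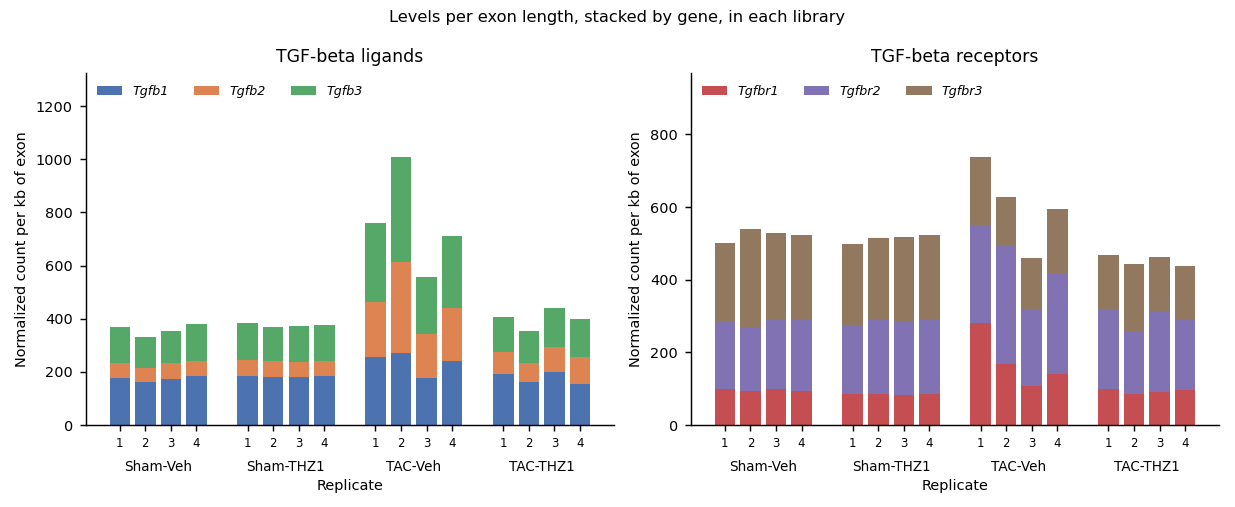
Normalized counts per kb of exon (vertical axes, from 0) of the 3 ligands and the 3 receptors, stacked by gene, in each library. The ligand stacks of TAC-Veh reach 556 to 1008 per kb against 330 to 380 in Sham-Veh, and the Tgfbr3 segment of the receptor stacks is shorter in both TAC groups than in both sham groups.

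The activin subunits were present at far lower levels, 5.05 ± 1.17 normalized counts per kb for Inhba and 13.5 ± 0.630 for Inhbb in Sham-Veh. Inhba (ENSMUSG00000041324, chr13:16103684-16119044, plus strand), which forms activin A, read 9.55, 12.0, 11.5 and 6.89 normalized counts (Sham-Veh), 15.5, 10.4, 10.7 and 12.2 (Sham-THZ1), 23.5, 60.8, 19.8 and 26.4 (TAC-Veh), then 8.74, 7.64, 19.5 and 12.9 (TAC-THZ1). TAC-Veh lay above every other library, though its lowest value was within 1 normalized count of the highest TAC-THZ1 value, and replicate 2 stood far above the other 3. On the log2 scale the change was 1.498 with TAC (SE 0.34, adjusted p 0.00205) and -1.29 with THZ1 in TAC (SE 0.34, adjusted p 0.00988). The 95% intervals were wide, from 0.78 to 2.22 and from -2.01 to -0.57. How much of this came from depth and how much from spread between hearts was not tested.

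Inhbb (ENSMUSG00000037035, chr1:121312042-121318825, minus strand), which forms activin B, read 60.5, 57.8, 53.9 and 57.4 normalized counts (Sham-Veh), 78.7, 51.0, 65.4 and 94.2 (Sham-THZ1), 281, 142, 68.4 and 116 (TAC-Veh), then 93.9, 57.3, 68.4 and 58.4 (TAC-THZ1). TAC-Veh lay above Sham-Veh in all 4 libraries but overlapped both THZ1 groups, and its replicate 1 was the highest. The log2 change was 1.20 with TAC (SE 0.30, adjusted p 0.00436) and -0.96 with THZ1 in TAC (SE 0.30, adjusted p 0.0263). The call for THZ1 was lost without TAC-Veh replicate 1 (log2 -0.60, adjusted p 0.0653), TAC-Veh replicate 2 (adjusted p 0.0634), TAC-THZ1 replicate 2 (adjusted p 0.0727) or TAC-THZ1 replicate 4 (adjusted p 0.0639), and with array weights (adjusted p 0.0956). Inha, whose product pairs with either beta chain to give inhibin in place of activin, read 117 ± 11.6 normalized counts (Sham-Veh), 122 ± 9.88 (Sham-THZ1), 92.2 ± 22.0 (TAC-Veh), then 123 ± 14.7 (TAC-THZ1). It was called higher with THZ1 in TAC (log2 0.44, adjusted p 0.0322) and not called with TAC (log2 -0.36, adjusted p 0.0520). The call of Inha was lost without TAC-Veh replicate 1 (adjusted p 0.0877), TAC-Veh replicate 4 (0.0779) or TAC-THZ1 replicate 4 (0.0978), with array weights (0.107) and in the 2 TAC groups fitted alone (0.136).

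The Inhba window is shown as the other searched member window that held TATAAA, here at position -91 from the annotated start, at 47.7% G and C.
Inhba (chr13:16011601-16011900, plus strand): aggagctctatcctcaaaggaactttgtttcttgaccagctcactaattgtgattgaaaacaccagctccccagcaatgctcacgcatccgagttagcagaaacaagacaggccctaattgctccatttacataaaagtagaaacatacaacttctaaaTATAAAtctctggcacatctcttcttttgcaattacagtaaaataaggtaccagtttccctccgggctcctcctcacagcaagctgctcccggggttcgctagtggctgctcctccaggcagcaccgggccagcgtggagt
The windows of Inhbb (64.3% G and C) and of the first Tgfbr1 start (74.7%) held 1 and 2 GC boxes, and that of Tgfbr2 (59.0%) held none of the 6 motifs. A downstream Tgfbr1 start had 1 CAGACA. In all, windows of 6 of the 9 members were searched, and Tgfb3, Tgfbr3 and Smad7 were not among them.

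Among the receptors, the signalling pair Tgfbr1 and Tgfbr2 rose with TAC and the co-receptor Tgfbr3 fell. Tgfbr2 (ENSMUSG00000032440, chr9:115993415-116084383, minus strand), the type II receptor, read 1517, 1417, 1552 and 1572 normalized counts (Sham-Veh), 1535, 1643, 1608 and 1650.3 (Sham-THZ1), 2197, 2626, 1734 and 2256 (TAC-Veh), then 1781, 1390.2, 1769.8 and 1546 (TAC-THZ1). TAC-Veh was above both sham groups in every library and overlapped TAC-THZ1 only through replicate 3. With a log2 change of 0.53 it rose with TAC (SE 0.10, adjusted p 5.94e-04), and with one of -0.43 it fell with THZ1 in TAC (SE 0.10, adjusted p 0.00506).

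Tgfbr1 (ENSMUSG00000007613, chr4:47366094-47427803, plus strand), the kinase that phosphorylates Smad2 and Smad3, read 652, 621, 653 and 617 normalized counts (Sham-Veh), 565, 564, 548 and 566 (Sham-THZ1), 1831, 1106, 695 and 915 (TAC-Veh), then 652, 569, 601 and 635 (TAC-THZ1). TAC-Veh was above all other libraries but spread over a wide range, with replicate 1 highest. The log2 change was 0.74 with TAC (SE 0.18, adjusted p 0.00380) and -0.80 with THZ1 in TAC (SE 0.18, adjusted p 0.00470). Without TAC-Veh replicate 1 the change with TAC was 0.48 (adjusted p 0.00189) and that with THZ1 in TAC -0.54. The sham groups also did not overlap, with Sham-THZ1 below Sham-Veh, which 5.05% of all genes did, and the log2 change of -0.18 (SE 0.18) was not called (adjusted p 0.940).

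Tgfbr3 (ENSMUSG00000029287, chr5:107535589-107718648, minus strand), the co-receptor betaglycan, went the other way. It read 1399, 1762, 1558 and 1526 normalized counts (Sham-Veh), 1444, 1468, 1543 and 1525 (Sham-THZ1), 1216, 877, 915 and 1145 (TAC-Veh), then 965, 1202, 994 and 977 (TAC-THZ1). All 8 TAC libraries lay below all 8 sham libraries, and the 2 TAC groups overlapped. The log2 change with TAC was -0.60 in vehicle (SE 0.10, adjusted p 2.16e-04) and -0.54 under THZ1 (SE 0.10, adjusted p 0.00253). TAC-THZ1 and TAC-Veh differed by 0.00 (95% interval -0.21 to 0.22, adjusted p 0.985).

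Per kb of exon, the 3 receptors stood in Sham-Veh in the order Tgfbr3 (239 ± 23.0 normalized counts per kb), Tgfbr2 (187 ± 8.52) and Tgfbr1 (97.3 ± 3.01). In TAC-Veh the order was Tgfbr2 (272 ± 45.3), Tgfbr1 (174 ± 75.3) and Tgfbr3 (159 ± 25.6), where the last pair lay within their SDs. Tgfbr3 made up 42.7% to 49.9% of the receptor sum (Sham-Veh), 43.7% to 45.5% (Sham-THZ1), 21.3% to 30.4% (TAC-Veh), then 31.6% to 41.5% (TAC-THZ1). The ranges of the sham and the TAC groups did not overlap, although the mean receptor sum, 523 ± 16.3, 513 ± 11.5, 605 ± 114 and 453 ± 14.7 per kb in the same order, was highest in TAC-Veh. The TAC-Veh sums ran from 461 to 738 per kb and so reached below the lowest sham sum, 497 in Sham-THZ1.

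Smad7 (ENSMUSG00000025880, chr18:75527183-75555589, plus strand) read 411, 398, 375 and 469.9 normalized counts (Sham-Veh), 515, 465, 447 and 523 (Sham-THZ1), 544, 525, 318 and 468 (TAC-Veh), then 435, 377, 487 and 341 (TAC-THZ1). The 4 groups overlapped, and TAC-Veh held both the highest and the lowest of the 16 values. The log2 change was 0.14 with TAC (SE 0.15, 95% interval -0.17 to 0.45, adjusted p 0.452) and -0.16 with THZ1 in TAC (SE 0.15, 95% interval -0.47 to 0.15, adjusted p 0.430). Both depended on TAC-Veh replicate 3, without which Smad7 was called higher with TAC (log2 0.31, adjusted p 0.0350) and lower with THZ1 in TAC (log2 -0.33, adjusted p 0.0332). Between TAC-THZ1 and Sham-THZ1 it was not called by limma without weights, and was called lower with array weights (log2 -0.32, adjusted p 0.0289).

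**Figure D3:**
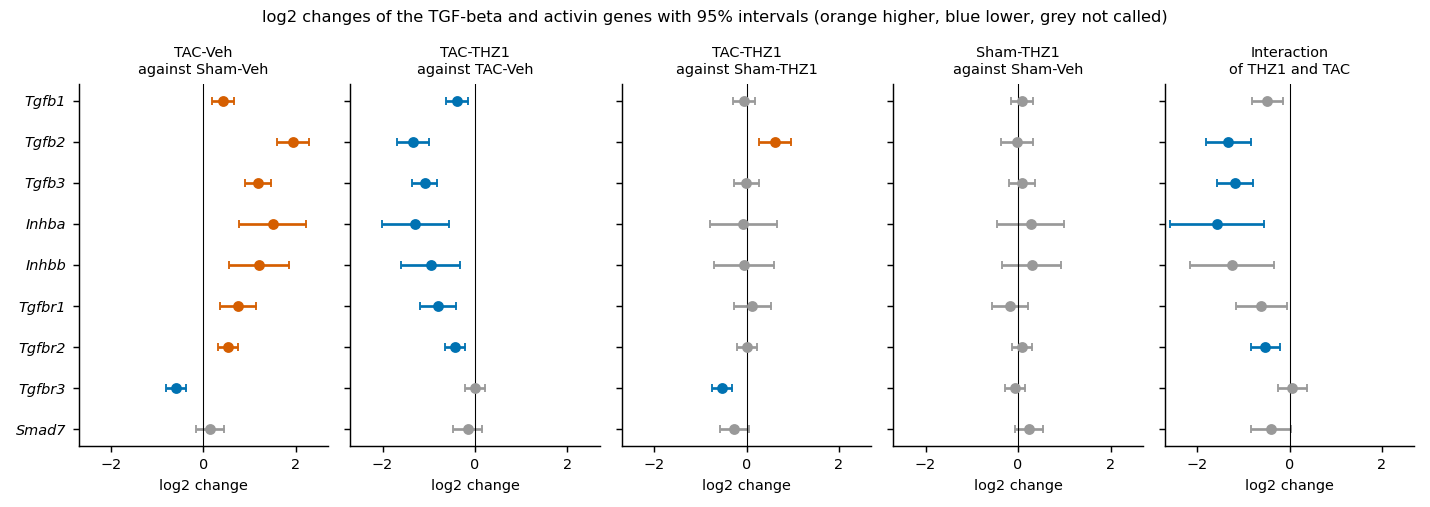
The log2 change (horizontal axes) of each gene in the 5 comparisons, with 95% intervals from the limma fit, in orange where called higher, blue where called lower and grey where not called. The first panel runs from 1.94 for Tgfb2 to -0.60 for Tgfbr3, and the panel of THZ1 in sham hearts holds no called gene.

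The sham comparison asks what the drug does without pressure overload. In the 2 sham groups the 9 log2 changes lay between -0.18 (Tgfbr1) and 0.29 (Inhbb), and no member reached even an unadjusted p under 0.05 with limma, edgeR or DESeq2. When the 2 sham groups were fitted without the TAC groups, whose libraries varied more, Tgfbr1 and Smad7 passed an unadjusted p of 0.05, with adjusted p-values of 0.0522 (log2 -0.18) and 0.0932 (log2 0.24). The 95% intervals of the main comparison were narrowest for Tgfbr2, from -0.13 to 0.30, and widest for Inhba, from -0.45 to 0.99.

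Whether the response to TAC differed between drug and vehicle was tested by the interaction. It was called for 4 members, all with a smaller TAC change under THZ1, against 5.62% of all genes by limma: Tgfb3 (-1.18, SE 0.19, adjusted p 0.00225), Tgfb2 (-1.33, SE 0.23, adjusted p 0.00378), Tgfbr2 (-0.52, SE 0.14, adjusted p 0.0327) and Inhba (-1.57, SE 0.48, adjusted p 0.0492). Tgfb1 (-0.48, adjusted p 0.0655), Inhbb (-1.25, adjusted p 0.0728), Tgfbr1 (-0.62, adjusted p 0.141) and Smad7 (-0.40, adjusted p 0.221) did not pass in that fit. The count was 3 with edgeR, and 5 with DESeq2 and with array weights. Over all 13331 genes, negative calls numbered 749 in the main fit, 727 with edgeR, 984 with DESeq2 and 921 with array weights. Inhba lost its call with edgeR (adjusted p 0.0716), DESeq2 (0.0535), upper quartile scaling (0.0510), a pseudocount of 5 (0.0506) and no filter on low counts (0.0636). Tgfb1 was called with DESeq2 (adjusted p 0.0366) and with array weights (0.0282), and Inhbb with DESeq2 (0.0182). For Tgfbr3 the interaction was 0.06 with a 95% interval from -0.24 to 0.37 (adjusted p 0.826). The interactions of Tgfb2 and Tgfb3 were called whichever of the 16 libraries was left out. Leaving out 1 library ended the call of Inhba in 13 of 16 cases and that of Tgfbr2 in 10, and without TAC-Veh replicate 3 the number of members called was 8, all but Tgfbr3. Without that library the negative calls over all 13331 genes also rose, from 749 to 1236.

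**Figure D4:**
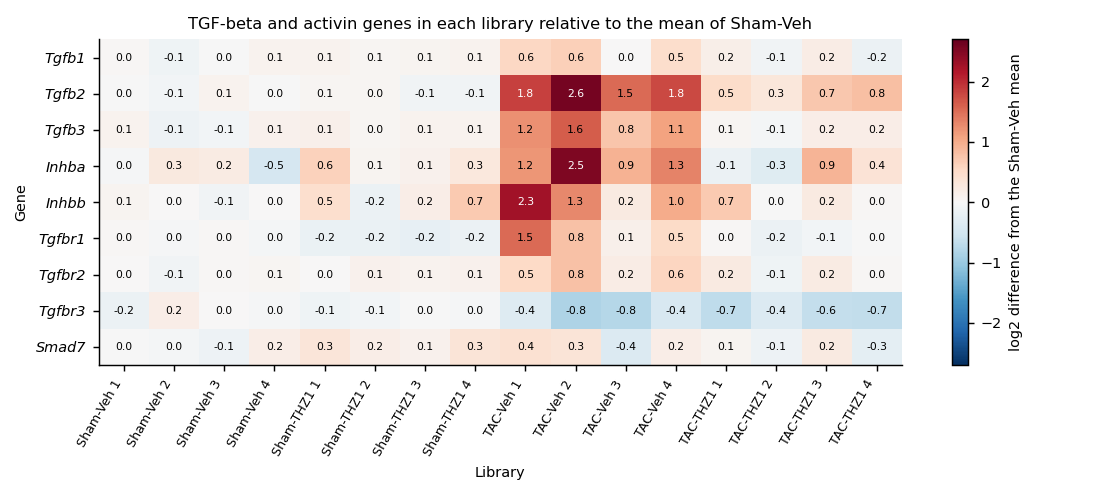
Each library's log2(normalized count + 1) minus the mean of Sham-Veh, by gene (rows) and library (columns), red above and blue below that mean. TAC-Veh replicate 2 reaches 2.6 for Tgfb2 and 2.5 for Inhba, TAC-Veh replicate 1 reaches 2.3 for Inhbb and 1.5 for Tgfbr1, and the Tgfbr3 row is blue in all 8 TAC libraries.

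The 4 TAC-Veh hearts differed among themselves. Replicate 2 was highest for Tgfb1, Tgfb2, Tgfb3, Inhba and Tgfbr2, replicate 1 for Inhbb, Tgfbr1, Tgfbr3 and Smad7, and replicate 3 was lowest for 8 of the 9, the exception being Tgfbr3. Among hearts of a group, deviations from the group mean of log2 values moved together most for Tgfb1 with Smad7 (Pearson r 0.94 over 16 libraries) and with Tgfbr2 (0.90), then for Tgfb2 with Tgfb3 and for Inhbb with Tgfbr1 (0.88 each). These points share libraries and size factors, so they are given as a description. Over all 16 libraries, the genes whose pattern was nearest to a member's, were sought among 10317 genes averaging 100 normalized counts or more. For Tgfb2 they were Svep1, Bgn and Col8a1 (Pearson r 0.99 each), for Tgfb3 Adamts2 (0.99), Col5a2 (0.99) and Col16a1 (0.98), and for Inhba Agfg1, Col16a1 and Emilin1 (0.93 each). Tgfb1 was nearest to Rbms3 (0.96), Tgfbr2 (0.95) and Farp1 (0.95), and Tgfbr2 to Sod3 (0.97), Aebp1 (0.96) and Adamts2 (0.96). Tgfbr1 was nearest to Ednrb, Cnn3 and Csgalnact2 (0.97, 0.96 and 0.96), Inhbb to Lipa, Sorbs3 and Rhoj (0.96, 0.95 and 0.94), and Tgfbr3 to D730040F13Rik, Rtf1 and Bhlhb9 (0.98, 0.97 and 0.97). The nearest genes to Smad7, which were Dlgap4, Ctdp1 and Hk1, reached only 0.87, 0.84 and 0.84. The 16 points are the 4 groups of libraries, so the coefficients hold the distances between groups and carry no test.

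Beyond the 9 members, 8 lists of pathway genes held 95 genes, of which 86 were tested. With TAC 38 were higher and 11 lower, where 21.4% and 23.6% of all genes tested were. With THZ1 in TAC 4 were higher and 34 lower, where 2019 and 1899 of all 13331 genes tested were. The same shares of all genes apply to the single lists below. In sham hearts none was called by limma, where 9 had an unadjusted p under 0.05. In sham hearts edgeR also called none, and DESeq2 called 1, the co-receptor Eng (log2 0.48, adjusted p 0.0130). Between TAC-THZ1 and Sham-THZ1, 11 of the 86 were higher and 11 lower, where all genes gave 11.4% and 12.8%. The interaction was called for 25, of which 23 were negative, where it was called negative for 5.62% of all genes. Inha, Eng, Acta2, Itgb5, Fst, Fstl3 and Smad5 are named for their known roles, after their values were seen. The 9 that were not tested included Nodal, Gdf5, Grem1 and Bmpr1b, with means of 2.88, 0.185, 0.179 and 5.81 normalized counts over the 16 libraries.

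Target genes that TGF-beta is known to raise had the largest median changes of the 8 lists. They were picked with earlier results of these data known, so their medians are a description and no independent test. Of 18, 16 were higher with TAC, at a median log2 change of 1.39 against -0.00 over all genes tested, and 13 were lower with THZ1 in TAC, at a median of -1.47 against 0.01. Between TAC-THZ1 and Sham-THZ1, 5 were higher and 1 lower. Cthrc1, a collagen-associated secreted protein, read 2.30 to 5.30 normalized counts (Sham-Veh), 0 to 4.32 (Sham-THZ1), 63.4 to 606 (TAC-Veh), then 7.64 to 28.5 (TAC-THZ1), with log2 changes of 5.37 with TAC and, for THZ1 in TAC, of -3.38. TAC-Veh lay above every other library, but 1 Sham-THZ1 library had no read, so the sizes depend on the pseudocount. No sham library reached 10 normalized counts, so Cthrc1 passed the filter only through TAC libraries, where it was high. Its calls, counted above, are therefore no independent support. Of the 18, 4 are also on the activated fibroblast list (Postn, Cthrc1, Acta2 and Col1a1), whose 7 genes were higher in 6 cases with TAC and lower in 5 with THZ1 in TAC. The other 14 gave 13 higher with TAC, and 10 were lower with THZ1 in TAC. Acta2, the smooth muscle actin of myofibroblasts, was not called in either comparison (log2 -0.07 and -0.23). Of the 5 genes known to respond to BMP, 3 (Id2, Id3 and Id4) were higher with TAC. The call of Id4 was lost without TAC-Veh replicate 1 (log2 0.54 against 0.79, adjusted p 0.104), TAC-Veh replicate 2 (adjusted p 0.0513), or Sham-Veh replicate 2 (0.0910) or 3 (0.0590). It was also lost with array weights (adjusted p 0.123), with quantile normalization (0.0778) and in TAC-Veh and Sham-Veh fitted alone (0.0651). That of Id2 (log2 0.42, adjusted p 0.0410) was lost without Sham-Veh replicate 2, 3 or 4, Sham-THZ1 replicate 1, or TAC-Veh replicate 1, 3 or 4, at adjusted p-values up to 0.108. Array weights (adjusted p 0.0997), quantile normalization (0.0584) and no filter on low counts (0.0538) ended the call of Id2 too. None of the 5 was called with THZ1 in TAC by limma, edgeR or DESeq2, with 1, 2 and 1 of them under an unadjusted p of 0.05.

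**Figure D5:**
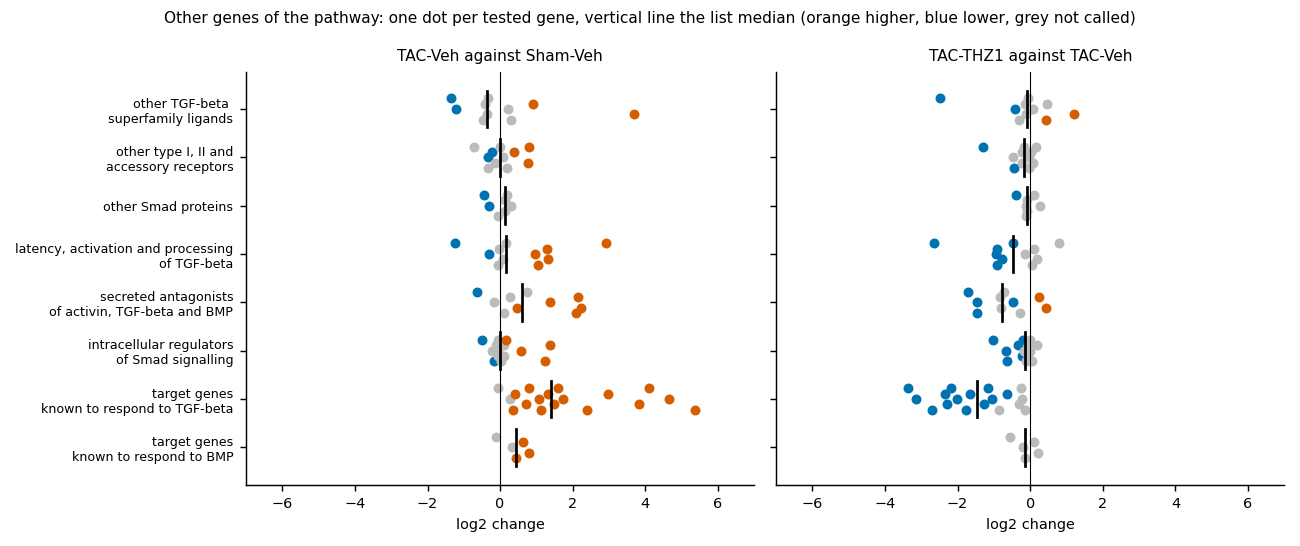
The log2 change (horizontal axes) of each tested gene of the 8 pathway lists (rows) with TAC and with THZ1 in TAC, with the list median as a vertical line. The TGF-beta target row lies mostly right of 0 in the left panel (median 1.39) and left of 0 in the right panel (median -1.47), while the rows of the other Smad proteins and of the BMP targets hold 1 and 0 called genes in the right panel.

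Of 11 genes listed for the latency, activation and processing of TGF-beta, 5 were higher and 2 lower with TAC, and 6 were lower with THZ1 in TAC. Thbs1, thrombospondin 1, which can activate latent TGF-beta, read 168 to 354 normalized counts (Sham-Veh), 269 to 386 (Sham-THZ1), 3814, 3246, 810.4 and 1559.6 (TAC-Veh), then 213 to 482 (TAC-THZ1). Its TAC-Veh values lay above those of all other groups, with log2 changes of 2.92 with TAC (SE 0.38, adjusted p 1.73e-05) and -2.65 with THZ1 in TAC (SE 0.38, adjusted p 1.98e-04). Itgb6, a chain of an integrin that activates TGF-beta in epithelia, fell from 505 ± 71.6 in Sham-Veh to 253 ± 134 in TAC-Veh (log2 -1.23, adjusted p 0.0119). In TAC-THZ1 it was 377 ± 89.4, which overlapped TAC-Veh and was not called against it. TAC-Veh replicate 1 held the lowest value, 69.4, and without it the log2 change with TAC was -0.69 (adjusted p 0.00744), while TAC-Veh and Sham-Veh fitted alone gave an adjusted p of 0.0501. Itgb5, of another activating integrin, was called higher with TAC (log2 0.96, adjusted p 8.39e-06) and lower with THZ1 in TAC (log2 -0.78, adjusted p 2.50e-04).

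Of 10 secreted antagonists tested, 5 were higher and 1 lower with TAC, and 4 were lower and 2 higher with THZ1 in TAC. Bgn, the matrix proteoglycan biglycan, which binds TGF-beta, measured 5883 ± 485 normalized counts without constriction (Sham-Veh), 28627 ± 8500.4 in TAC-Veh and 10203 ± 1897 in TAC-THZ1, with log2 changes of 2.24 (adjusted p 1.24e-07) and -1.46 (adjusted p 5.19e-05). Fstl1, a follistatin-like glycoprotein, had the largest called fall of the list with THZ1 in TAC (log2 -1.72, adjusted p 7.66e-05). Fstl3, which binds activin, rose from 94.8 ± 6.84 to 455 ± 211 with TAC (log2 2.13, adjusted p 2.41e-06) and was 152 ± 12.2 in TAC-THZ1 (log2 -1.46, adjusted p 2.82e-04). Fst, follistatin itself, was low at 11.01 ± 3.48 and 20.6 ± 11.9 and was not called (adjusted p 0.0892). Of the secreted proteases on the list, Htra1 was lower with TAC (log2 -0.63, adjusted p 2.62e-06) and Htra3 was higher with THZ1 in TAC (log2 0.43, adjusted p 0.0323). The call of Htra3 was lost without TAC-THZ1 replicate 1 (log2 0.27, adjusted p 0.104), TAC-Veh replicate 1 (0.0601) or TAC-Veh replicate 2 (0.120), with array weights (0.107) and in TAC-Veh and TAC-THZ1 fitted alone (0.145).

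Among 10 other ligands of the superfamily tested, 2 were higher and 2 lower with TAC, and 2 were higher and 2 lower with THZ1 in TAC. Gdf6 read 20.2, 20.1, 13.3 and 19.5 normalized counts (Sham-Veh), 23.9, 22.5, 37.4 and 21.3 (Sham-THZ1), 159, 769, 133 and 214 (TAC-Veh), then 38.2, 35.6, 63.5 and 38.6 (TAC-THZ1). TAC-Veh stood clear of the other groups, and replicate 2 was again far above the rest. Its log2 changes were 3.68 (SE 0.40, adjusted p 3.52e-06) and -2.48 (SE 0.40, adjusted p 4.50e-04), both larger than those of any of the 9 members. Bmp7, known to oppose TGF-beta in fibrosis, moved in the other direction, from 38.7 ± 10.45 in Sham-Veh to 14.6 ± 4.05 in TAC-Veh and 35.2 ± 11.6 in TAC-THZ1 (log2 -1.35, adjusted p 6.02e-04, and 1.20, adjusted p 0.00327).

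Of 11 other receptors and co-receptors tested, 3 were higher and 2 lower with TAC and 2 were lower with THZ1 in TAC. Cd109, a co-receptor that inhibits TGF-beta signalling, went from 98.0 ± 18.8 to 176 ± 54.95 with TAC (log2 0.80, adjusted p 0.00928) and to 68.4 ± 10.7 in TAC-THZ1 (log2 -1.31, adjusted p 7.59e-04), and with array weights its change with TAC was not called (adjusted p 0.0574). Acvr1b, the type I activin receptor, was lower with TAC (log2 -0.33, adjusted p 0.00560). Of 7 other Smad genes, limma and edgeR called none higher with TAC (1 and 2 under an unadjusted p of 0.05), and DESeq2 called 1. Smad3 was lower (log2 -0.44, adjusted p 0.00900), as was Smad5, and Smad1 was lower with THZ1 in TAC (log2 -0.40, adjusted p 0.00539), though not in the 2 TAC groups fitted alone (adjusted p 0.0553). Of 14 intracellular regulators of Smad signalling, 4 were higher and 2 lower with TAC, and 6 were lower with THZ1 in TAC. Tgif1, a repressor of Smad target genes, had the largest rise (log2 1.37, adjusted p 2.14e-05), Nedd4l, a ubiquitin ligase for active Smad2 and Smad3, the largest fall (log2 -0.50, adjusted p 3.51e-04), and Pmepa1, which holds Smads back from the receptor and is raised by TGF-beta, fell most with THZ1 in TAC (log2 -1.01, adjusted p 4.93e-04).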

How the data were processed

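Ventricles of 16 mice were measured by stranded poly(A) RNA sequencing, 1 library a mouse. The authors aligned reads to mm9 with TopHat2 2.1.1, counted them per GENCODE gene with HTSeq on the reverse strand and divided by DESeq2 size factors, so the deposited signal values are normalized counts, 0 columns of other samples being present. All values were whole multiples of a library's step (tolerance 0.01), which gave back the read counts used for edgeR 4.0.16 and DESeq2 1.42.0. Identifiers matched the NCBIM37 annotation (22372 of 22372).

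Here log2(normalized count + 1) was fitted in R 4.3.3 with limma 3.58.1 (1 mean per group over 16 libraries, empirical Bayes with a trend), on genes with at least 10 normalized counts in 4 libraries, with Benjamini-Hochberg adjustment over 13331 genes in each of 5 comparisons. The procedure was first checked on simulated data, in which each gene had the same dispersion in all groups. That check cannot judge calls that depend on the wider spread among TAC-Veh libraries. Members and lists were chosen with earlier results of these data known. Named pathway genes are, per list, the called genes with the largest rise and fall with TAC and with THZ1 in TAC; likeness is the Pearson r over 16 libraries, 3 genes a member. Mice are the replicates. Alternatives changed the pseudocount, filter, scaling, libraries, model and thresholds. Depth limits Inhba most. No protein sequences were used here.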

Additional observations from a re-analysis of the deposited data

Results flagged for a closer look

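In 36 groups of 4 values (9 genes in 4 groups), the gap of the extreme library to its neighbour, as a share of the group's range, passed Dixon's 95% limit in 3, where chance gives about 1 in 20. Inhba was 60.8 normalized counts in TAC-Veh replicate 2, far above the other 3 (gap share 0.839). Tgfbr1 was 548 in Sham-THZ1 replicate 3, below the other 3 libraries (0.895), in the group with the smallest spread of that gene. Tgfbr3 was 1202 in TAC-THZ1 replicate 2, above the others (0.877).

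For 4 members the response to TAC differed between vehicle and THZ1 by the interaction term of limma. The difference of log2 changes was -1.33 for Tgfb2, -1.18 for Tgfb3, -1.57 for Inhba and -0.52 for Tgfbr2, with each TAC change smaller under THZ1. The call for Inhba was lost with edgeR (adjusted p 0.0716) and with DESeq2 (adjusted p 0.0535).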

How the results depend on the processing

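Over the alternatives run, the direction of every called member change was kept with TAC and with THZ1 in TAC. The fold threshold of the study left 4 members in each of these comparisons and 26 and 23 of the pathway genes (49 and 38 without it). Fitting the groups compared alone left 2 members lower with THZ1 in TAC, and gave 9 pathway genes for THZ1 in sham hearts, where array weights gave 4, DESeq2 1 and the fit over all groups 0. Over all genes that comparison had 3 higher and 6 lower calls in the fit over all groups, 287 and 178 in the groups alone and 254 and 259 with array weights, and THZ1 in TAC had 2019 and 1899 against 583 and 816 in the groups alone. An adjusted p under 0.01 left 1 member between TAC-THZ1 and Sham-THZ1, 2 for the interaction, and 11 and 14 pathway genes (from 22 and 25). Leaving out 1 library gave 2 to 8 members for the interaction, 8 without TAC-Veh replicate 3, and 0 to 1 pathway genes in sham hearts, the 1 (Eng) without TAC-Veh replicate 1. Without TAC-Veh replicate 3, negative interactions over all genes numbered 1236, against 749 with all libraries.

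Same-numbered libraries did not deviate together (correlations -0.431 to 0.164), so the numbers were not taken as pairs. With a replicate block the interaction was called for 2 members in place of 4, and the counts of the other 4 member comparisons were 8, 7, 0 and 2. Negative interactions over all genes then numbered 663 in place of 749.

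Signs turned only for changes that were never called. Between TAC-THZ1 and Sham-THZ1, Tgfb3 (-0.00) became 0.0115 with upper quartile scaling, 0.0116 with array weights, 0.0204 with quantile normalization, 0.00337 with TMM, 0.00953 with edgeR and 0.0062 with DESeq2, Inhba (-0.07) became 0.0658 with edgeR and 0.0434 with DESeq2, and Tgfbr2 (0.00) became -0.0163 with array weights. Tgfbr3 with THZ1 in TAC became -0.00634 with upper quartile scaling, -0.00331 with quantile normalization, -0.00696 with edgeR and -0.00537 with DESeq2. Leaving out 1 library gave, between TAC-THZ1 and Sham-THZ1, -0.115 to 0.00815 for Tgfb1, -0.0323 to 0.0501 for Tgfb3, -0.308 to 0.108 for Inhba, -0.204 to 0.0867 for Inhbb and -0.0432 to 0.0759 for Tgfbr2. It gave -0.0733 to 0.0838 for Tgfbr3 with THZ1 in TAC, -0.0152 to 0.142 for its interaction, and in sham hearts -0.109 to 0.00178 for Tgfbr3 and -0.0469 to 0.0127 for Tgfb2. The cause of these moves was not tested.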
